A study of Bos taurus with 20 samples.

Results

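The genes described here are the insulin-like growth factors (IGFs) and their binding proteins, measured in mesenchymal stem cell (MSC) clones from cattle fat. The group holds 8 genes, the ligands IGF1 and IGF2 and the binding proteins IGFBP2, IGFBP3, IGFBP4, IGFBP5, IGFBP6 and IGFBP7. They were taken by symbol from a table of raw read counts with 33063 named genes, and each of the 8 had a row. RNA was sequenced from 10 adipogenic (A) and 10 non-adipogenic (N) clones, with 1 library per clone. The MSCs came from visceral fat, inguinal or perirenal, of Holstein Friesian x Aberdeen Angus calves aged 1 to 6 months. Each clone was grown from a single sorted cell. The medium held 10% fetal bovine serum, itself a source of IGFs, and 5 ng/ml of basic fibroblast growth factor. After sorting, it also held medium conditioned by MSC cultures of the same animal. The content of IGFs and binding proteins in that conditioned medium is not given. The cells of a clone had not been differentiated when RNA was taken. Adipogenic clones had formed adipocytes in a separate differentiation test and, after further expansion, again in a later test. Of these, the 10 with the highest share of lipid-stained cells were the A clones sequenced. N clones were clones that failed to differentiate in the earlier test. The paper also reports that N clones grew faster than A clones. From animals 17 and 20 there was 1 clone of each kind, and from animals 22 and 23 there were 4 of each kind, so that A and N clones were matched for genetic background. Clones are named by animal and clone number, as in 22-18.

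IGF1 and IGF2 are secreted peptides that signal through the receptor tyrosine kinase IGF1R, and IGF2 is also taken up and degraded by way of IGF2R. The binding proteins hold the ligands outside the cell, prolong their life and keep them from the receptor until they are released, in several cases by a protease that cuts the binding protein. IGFBP7 is a more distant relative with low affinity for the IGFs. Growth hormone, acting through GHR, JAK2 and STAT5, is a main inducer of IGF1, and IGF1 is a known stimulus for the differentiation of preadipocytes.

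The libraries of A clones held 14615493 to 29185355 counts on named genes, and those of N clones 14908802 to 43111345. The level of a gene in a clone is its CPM, the count scaled to the library size and TMM factor, and a count of 0 allows up to 3 counts, which is 0.0764 to 0.216 CPM in these libraries. The summed level of 6 MSC markers (PDGFRA, ITGB1, NT5E, THY1, ENG and CD44) was 3308 to 5425 CPM in A clones and 2729 to 5077 CPM in N clones. The summed level of 6 macrophage markers, none of which passed the filter, was 0.806 to 7.70 CPM in A clones (median 4.02) and 0.146 to 8.04 CPM in N clones (median 0.457). Of these, PTPRC did not exceed 0.253 CPM in any clone, while CSF1R was at 0.476 to 2.38 CPM in A clones and at most 0.255 CPM in N clones, with no overlap. The other macrophage markers did overlap. CD14 reached 4.88 CPM in A and 6.57 CPM in N clones, AIF1 1.03 and 0.798 CPM, and CD163 3.41 and 1.68 CPM. ITGAM was at 0 CPM in A clones and at most 0.123 CPM in N clones. A pair of N clones stood apart, 22-5 and 22-9, in which 8 mesothelial markers summed to 10174 and 7064 CPM, against at most 612 CPM in the other N clones and 1181 CPM in A clones. In N clone 22-5 the MSC markers NT5E and THY1 were at 0.508 and 0.395 CPM. Among other marker lists, 3 of 7 tested smooth muscle and pericyte genes were higher in A clones (MYH11, NOTCH3 and CSPG4, list sums 4341 to 11063 CPM against 1085 to 9976 CPM), and 3 of 6 proliferation genes were lower (MKI67, TOP2A and CDK1, list sums 24.2 to 295 CPM against 102 to 492 CPM). ACTA2 and TAGLN made up most of the smooth muscle sums and did not pass (edgeR, adjusted p = 0.334 and 0.0836). Their means were 3210 and 3197 CPM in A clones and 1955 and 2174 CPM in N clones. The sum of 1085 CPM was that of N clone 22-5. Of 4 tested mature adipocyte markers edgeR called 1, PLIN1, as higher in A clones (log2 fold change 0.53, adjusted p = 0.0456) and 0 as lower. Of 7 tested mesothelial markers it called 1, MSLN, as lower (log2 fold change -1.97, adjusted p = 0.0393) and 0 as higher. Other markers of these lists had a fitted log2 fold change of the opposite sign without passing, such as CIDEC (-0.64, adjusted p = 0.129) and KRT19 (1.16, adjusted p = 0.806). The mean level of KRT19 was nevertheless lower in A than in N clones (53.4 against 407 CPM), and 4 clones had no KRT19 count. The part of these markers in the differences described here was not tested.

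IGFBP3 was the member that set A and N clones apart most clearly. IGFBP3, the main carrier of IGFs in blood and also a product of mesenchymal cells, was higher in A clones with a log2 fold change of 4.40 (SE 1.11, adjusted p = 0.0123). Of the 6 members that were tested, IGFBP3 alone passed at an adjusted p under 0.05, and it was also past the 2-fold limit. With an estimated correlation between clones of an animal (limma-voom), IGFBP3 had an adjusted p of 0.0634 and no member passed. Across all 12900 genes tested, 20.6% passed the test, 10.3% as higher and 10.3% as lower in A clones, and 5.76% also changed at least 2-fold. In bulk RNA of a clone, fewer cells with a transcript and less of it per cell cannot be told apart.

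**Figure D1:**
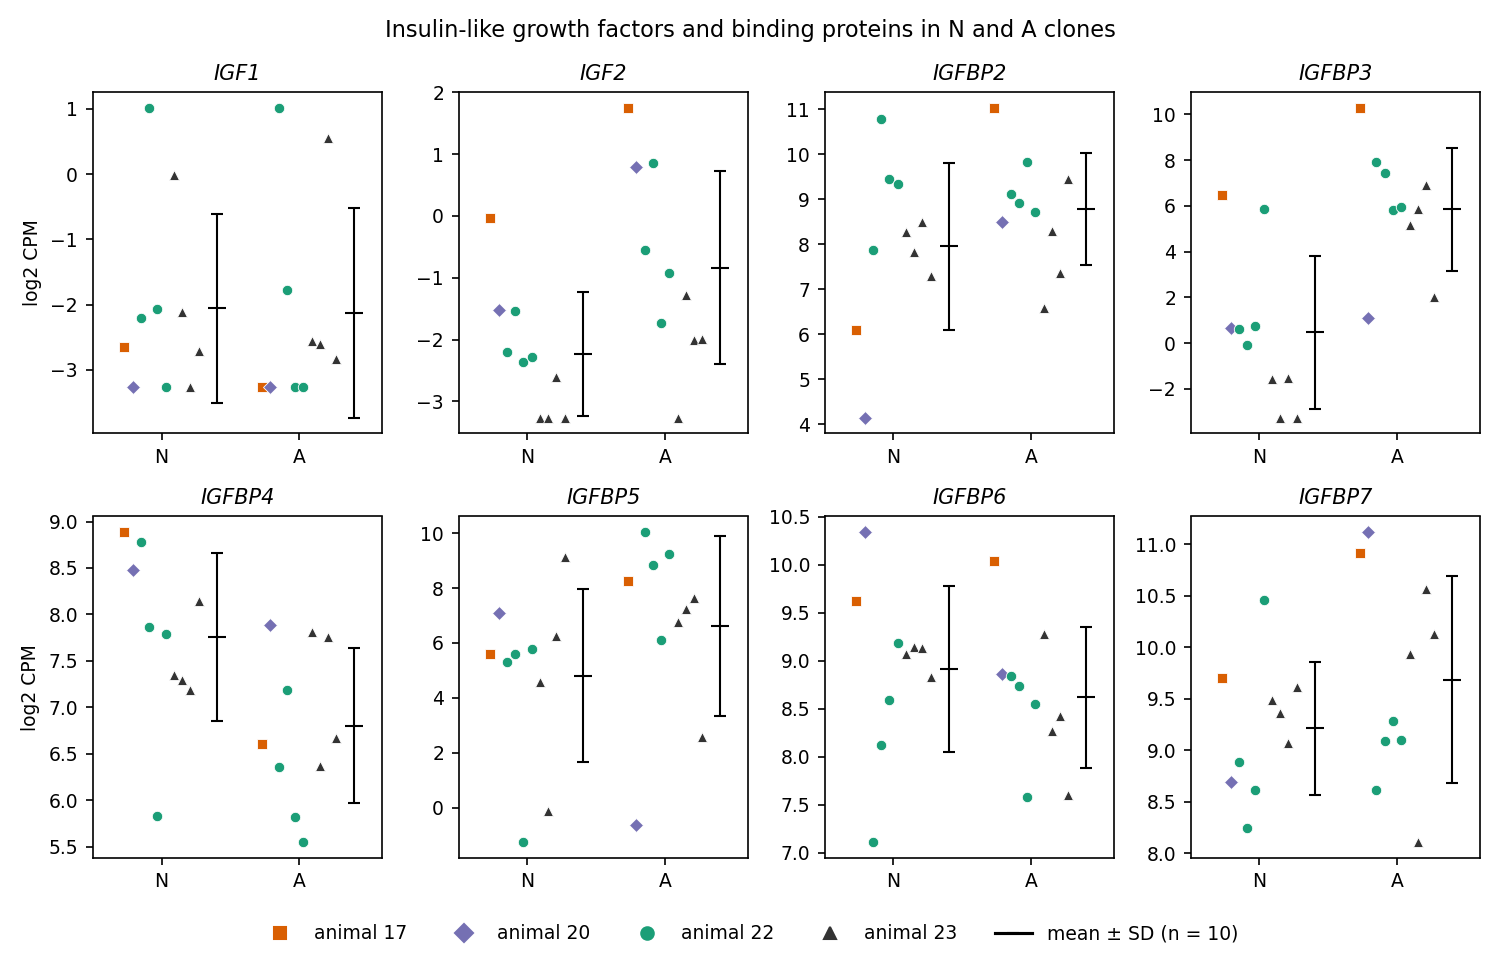
Level of each of the 8 genes in each clone, as log2 CPM with a prior count of 2, for N clones on the left and A clones on the right of every panel; symbols mark the 4 animals, and the black bar gives mean ± SD over 10 clones. IGFBP3 sat high in 8 of 10 A clones and low in 8 of 10 N clones, while for the other 7 genes most points lay in a range common to both groups.

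Both ligands lay near the limit of detection. IGF1 was at 0 to 53 counts per clone, and at least 1 count was found in 6 of 10 A clones and 7 of 10 N clones. Its lowest, median and highest levels were 0, 0.0489 and 1.92 CPM in A clones and 0, 0.0837 and 1.92 CPM in N clones. IGF1 was highest in A clones 22-11 and 23-68 and N clones 22-9 and 23-10, with 53, 19, 32 and 15 counts, and no other clone had more than 3. The filter on low counts left IGF1 out, and a fit of the unfiltered table gave it a log2 fold change of 0.17 (SE 1.10, adjusted p = 0.944).

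IGF2, the ligand known mainly from fetal growth, was at 0 to 48 counts in A clones and 0 to 16 counts in N clones. Its lowest, median and highest levels were 0, 0.366 and 3.27 CPM in A clones and 0, 0.0957 and 0.871 CPM in N clones. The groups overlapped, with 3 of 10 A clones above every N clone. Summed over the clones of an animal, IGF2 had 48 counts in the A clone and 16 in the N clone of animal 17, 33 and 4 in animal 20, 53 and 12 in animal 22, and 11 and 1 in animal 23. The A clones thus held more IGF2 counts in each of the 4 animals, at a level close to that of no detection in animal 23. IGF2 did not pass the filter either. In the fit without it, IGF2 was higher in A clones with a log2 fold change of 2.45 (SE 0.515, adjusted p = 0.00593), and 2 of 8 members, IGF2 and IGFBP3, passed the test, where 11.8% of 23383 genes did. The call for IGF2 was lost without the block (adjusted p = 0.0830), without animal 22 (adjusted p = 0.0666), without animal 23 (adjusted p = 0.0925) and in either of these animals alone. A two-sided exact permutation test of log2 CPM within animals gave p = 0.00143 for IGF2 and p = 0.891 for IGF1, neither adjusted.

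The levels of IGFBP3 spanned from 2.06 to 1256 CPM in A clones, with a median of 59.7 CPM, and from 0 to 89.0 CPM in N clones, with a median of 1.13 CPM. Means were 201 ± 378 CPM in A and 15.2 ± 31.5 CPM in N clones (SD, n = 10 each). The groups overlapped at their edges, since 8 of 10 A clones were at 35.1 CPM or above and 8 of 10 N clones at 1.57 CPM or below. The exceptions were A clones 20-106 and 23-108, at 2.06 and 3.92 CPM, and N clones 17-23 and 22-18, at 89.0 and 57.5 CPM.

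Within animals, IGFBP3 was higher on average in A than in N clones of all 4. In animal 17 it was at 1256 CPM in the A clone and 89.0 CPM in the N clone, and in animal 20 at 2.06 and 1.47 CPM, so that the pair of animal 20 hardly differed. The A clones of animal 22 were at 242, 174, 56.4 and 61.9 CPM and its N clones at 1.41, 0.84, 1.57 and 57.5 CPM. In animal 23 the A clones were at 35.1, 57.4, 119 and 3.92 CPM, while the N clones held 4, 0, 4 and 0 counts, all at the limit of detection or just above it. Animal 23 was thus where A and N clones were farthest apart, with no overlap.

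The exact permutation test within animals gave p = 0.000204 for IGFBP3, where the smallest p the design allows is 0.000102. The call for IGFBP3 held when any 1 clone was left out (log2 fold change 4.08 to 6.37), with the value of 6.37 reached without N clone 22-18, and it held without N clones 22-5 and 22-9 (log2 fold change 4.09, adjusted p = 0.0297). Besides limma-voom, it was lost when the animal was not a block (log2 fold change 3.71, adjusted p = 0.0626), when animal 23 was left out (2.89, adjusted p = 0.196), with counts summed per animal and condition (3.55, adjusted p = 0.319) and in animal 22 alone (3.09, adjusted p = 0.286).

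IGFBP4, a binding protein known to restrain IGF action and the classical substrate of the protease PAPPA, was at lower levels in A than in N clones, without passing the test. Its lowest, median and highest levels were 46.7, 99.4 and 237 CPM in A clones and 56.9, 226 and 473 CPM in N clones. The ranges overlapped widely, with 2 of 10 A clones under the lowest N clone. A log2 fold change of -0.99 was fitted (SE 0.36, adjusted p = 0.0583), and the permutation test gave p = 0.0246, unadjusted. The mean difference of A minus N clones in log2 CPM was -2.28, -0.59, -1.33 and -0.34 for animals 17, 20, 22 and 23, so the sign was the same in each of them. IGFBP4 passed the test with DESeq2 (adjusted p = 0.0187), and the value shrank to -0.67 (adjusted p = 0.193) without N clones 22-5 and 22-9.

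IGFBP5, a binding protein that attaches to the extracellular matrix, was among the genes that varied most between clones of a group. Its lowest, median and highest levels were 0.539, 174 and 1055 CPM in A clones and 0.314, 48.4 and 558 CPM in N clones. In animal 22 all A clones (1055, 463, 68.6 and 611 CPM) were above all N clones (39.6, 48.7, 0.314 and 55.2 CPM). A fit of animal 22 alone gave IGFBP5 a log2 fold change of 3.92, which did not pass (edgeR, adjusted p = 0.172). In animal 20 the order was the opposite, with 0.539 CPM in the A clone and 138 CPM in the N clone. In animal 23 the highest level was in an N clone, 23-74, at 558 CPM, and the A clones were at 110, 150, 198 and 5.82 CPM. The log2 fold change over all clones was 1.36 with an SE of 1.44 (adjusted p = 0.520), so a difference was not shown in either direction.

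IGFBP2, a binding protein produced by preadipocytes among other cells, was at 95.7, 451 and 2100 CPM in A clones and 17.6, 272 and 1762 CPM in N clones (lowest, median and highest). The groups overlapped over nearly their whole range. In animal 17 the A clone was at 2100 CPM and the N clone at 68.2 CPM, and in animal 20 at 359 and 17.6 CPM. In animals 22 and 23 the means were 590 ± 216 and 318 ± 268 CPM in A clones and 834 ± 652 and 264 ± 90.5 CPM in N clones (SD, n = 4 each). In both animals the difference of the means was smaller than the larger of the 2 SDs. The log2 fold change of IGFBP2 was 0.55 (SE 0.611, adjusted p = 0.543). Whether the pairs of animals 17 and 20 differed from animals 22 and 23 was not tested.

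IGFBP6, which prefers IGF2 over IGF1, was at 191, 401 and 1050 CPM in A clones and 138, 550.1 and 1298 CPM in N clones (lowest, median and highest). Its log2 fold change was -0.29 (SE 0.268, adjusted p = 0.462). IGFBP7, a secreted protein of the matrix and vessels, was at 276, 799 and 2220 CPM in A clones and 304, 598 and 1407 CPM in N clones. Its log2 fold change was 0.44 (SE 0.351, adjusted p = 0.384). For IGFBP7 the A clone was above the N clone in animal 17 (1932 against 830.1 CPM) and in animal 20 (2220 against 413 CPM), while in animal 22 the highest level was that of an N clone, 22-18, at 1407 CPM. IGFBP7 overlaps POLR2B in the RefSeq annotation of assembly ARS-UCD2.0, and the authors counted unique reads within exons, with no rule given in the sources used here for reads that fall on exons of both genes, so that its counts are uncertain to that extent. The permutation test within animals gave p = 0.314 for IGFBP2, 0.258 for IGFBP5, 0.335 for IGFBP6 and 0.245 for IGFBP7, none adjusted.

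**Figure D2:**
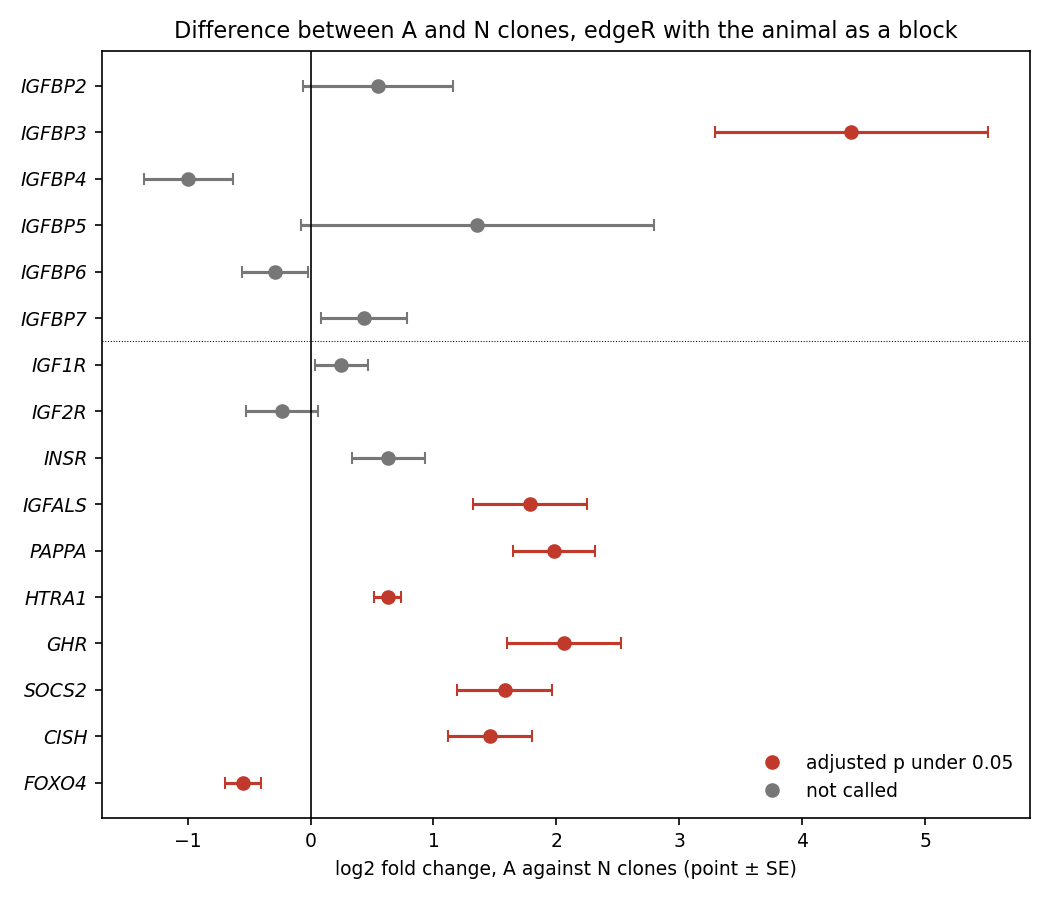
Log2 fold change of A against N clones (point) with its standard error (bar) for the 6 tested members, above the dotted line, and for receptors and called genes of the IGF axis, below it; red points had an adjusted p under 0.05. IGFBP3 had the largest value and IGFBP5 the widest error of those drawn, while FOXO4 was the only red point below 0.

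The 6 tested members had a median log2 fold change of 0.49, against -0.01 for all genes tested. All 6 varied more between clones of the same animal and group than most genes. In the 16 clones of animals 22 and 23, the pooled SD of log2 CPM within animal and group was 2.96 for IGFBP5, 1.87 for IGFBP3, 0.93 for IGFBP2, 0.84 for IGFBP4, 0.75 for IGFBP7 and 0.63 for IGFBP6. The median over all genes tested was 0.32 and the 95th percentile 1.39. IGFBP5 thus varied more than 99.9% of the genes, IGFBP3 more than 98.2% and IGFBP6, the steadiest of the 6, more than 79.2%. The spread of IGFBP5 was 3.65 among N clones and 2.06 among A clones, and that of IGFBP3 2.06 and 1.66.

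With the condition held, none of the 6 tested members differed between the 4 animals at an adjusted p under 0.05 (edgeR, 2 of 6 at an unadjusted p under 0.05), where 4.6% of all genes did. The smallest adjusted p was that of IGFBP3 (0.0522), followed by IGFBP6 (0.107). The highest levels of IGFBP6 were in N clone 20-15, at 1298 CPM, and A clone 17-57, at 1050 CPM. In animals 22 and 23 its means were 363 ± 120 and 366 ± 180.0 CPM in A clones and 345 ± 186 and 530.3 ± 50.5 CPM in N clones (SD, n = 4 each).

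The difference between A and N clones was compared between animals 22 and 23, the animals with several clones of each kind. For none of the 6 members did the interaction pass (edgeR, 1 of 6 at an unadjusted p under 0.05), where 0.031% of all genes did. For IGFBP3 the log2 fold change was larger in animal 23 by 5.69 (SE 2.20, adjusted p = 0.480), and for IGFBP5 it was smaller by 4.44, a difference of -4.44 (SE 2.10, adjusted p = 0.557). Both had errors too wide to tell the animals apart after adjustment. Fitted on animal 22 alone, where 1.15% of genes passed, no member passed and IGFBP3 had a log2 fold change of 3.09 (adjusted p = 0.286). On animal 23 alone, where 6.22% of genes passed, IGFBP3 was higher in A clones by a log2 fold change of 8.79 (adjusted p = 0.0159), a fitted value against N clones with 0 to 4 counts each, and no other member passed.

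**Figure D3:**
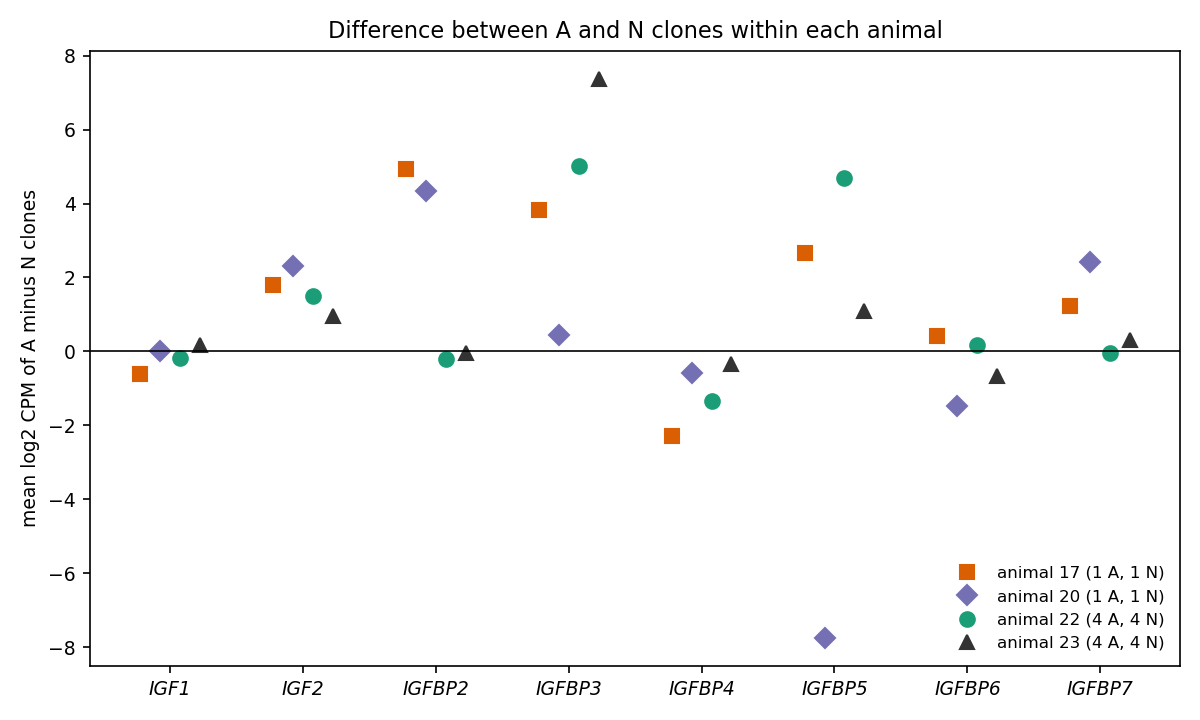
Difference of mean log2 CPM (A minus N clones) within each of the 4 animals for the 8 genes; animals 17 and 20 rest on 1 A and 1 N clone and animals 22 and 23 on 4 of each. IGFBP3 was above 0 and IGFBP4 below 0 in all 4 animals, whereas IGFBP5 ran from -7.75 in animal 20 to 4.70 in animal 22.

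The members did not move as a block across the 20 clones. The Spearman correlation of log2 CPM, given as a description over clones that share animals and culture, was 0.51 for IGFBP3 and IGFBP5, the highest of the 15 pairs, and -0.63 for IGFBP2 and IGFBP4, the lowest. The A clones with the least IGFBP3, 20-106 and 23-108, were also those with the least IGFBP5, at 0.539 and 5.82 CPM. N clone 23-74, with the most IGFBP5 among N clones, had no IGFBP3 count. IGFBP2 and IGFBP5 are next to each other in the RefSeq annotation, and their levels had a correlation of -0.05. IGFBP3 is next to IGFBP1, which had 0 counts in all 20 clones.

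**Figure D4:**
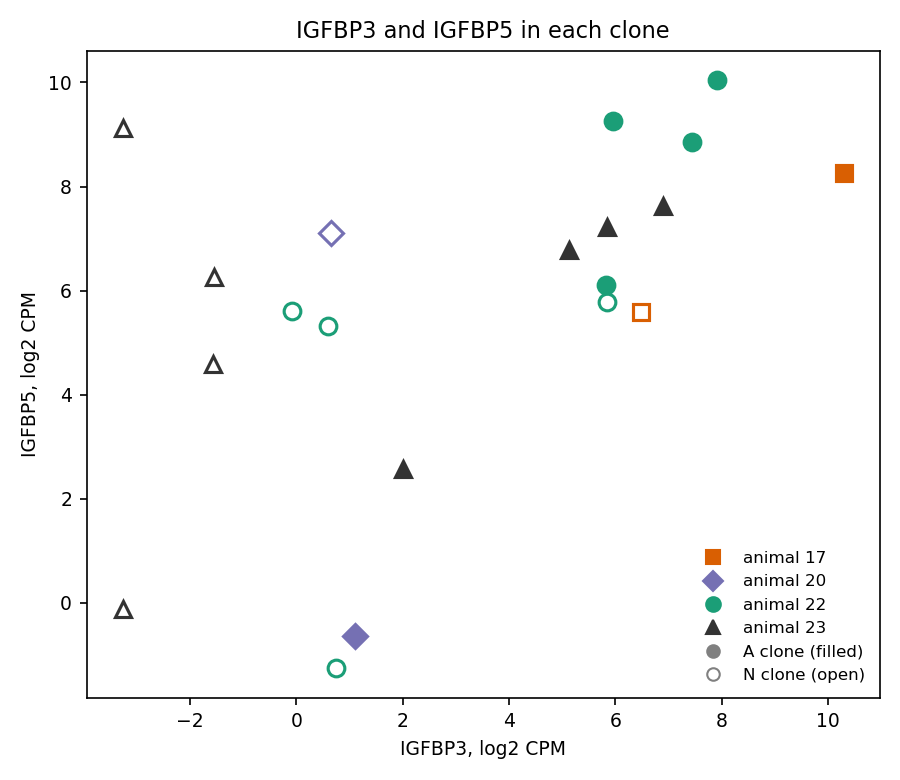
Level of IGFBP3 (x axis, log2 CPM) against that of IGFBP5 (y axis, log2 CPM) in each clone; filled symbols are A clones, open symbols N clones, and shapes mark the 4 animals. Most A clones were high in both genes, A clones 20-106 and 23-108 were low in both, and N clone 23-74 was high in IGFBP5 without an IGFBP3 count.

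Beside the members, 61 genes of the IGF axis were listed, of which 60 had a row and 50 were tested. Of these, 7 passed the test (14%), 6 as higher and 1 as lower in A clones, against 20.6% of all genes. The receptors IGF1R, IGF2R and INSR had counts in all clones and did not pass. IGF1R was at 51.6, 77.3 and 175 CPM in A clones and 47.1, 62.5 and 131 CPM in N clones (lowest, median and highest), with a log2 fold change of 0.25 (SE 0.216, adjusted p = 0.414). IGF2R was at 209, 535 and 1078 CPM against 265, 597 and 1162 CPM, with a log2 fold change of -0.23 (SE 0.295, adjusted p = 0.596). The insulin receptor INSR was at 3.97, 20.3 and 24.8 CPM against 0.675, 14.2 and 44.1 CPM, with a log2 fold change of 0.63 (SE 0.296, adjusted p = 0.133). INSR passed without animal 22 (log2 fold change 1.28, adjusted p = 0.0223), without N clones 22-5 and 22-9 (0.87, adjusted p = 0.0303) or without 22-9 alone (0.86, adjusted p = 0.0231). It did not pass without animal 17, 20 or 23 (edgeR, adjusted p = 0.250, 0.243 and 0.606). Of the 3 tested receptors, edgeR called 0 with 1 at an unadjusted p under 0.05, and DESeq2 and limma-voom also called 0. INSRR, the insulin receptor-related receptor, did not exceed 0.756 CPM in any clone and was not tested.

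Of the proteases of binding proteins and their inhibitors, edgeR called 2 of 5 tested as higher in A clones and 0 as lower. Of all genes, 10.3% were higher and 10.3% lower. DESeq2 with the block called 3 of the 5, STC2 besides the genes below, and limma-voom called 2. PAPPA, the metalloprotease that cuts IGFBP4 and thereby frees IGF, was at 35.8, 87.2 and 217 CPM in A clones and 12.1, 25.7 and 48.0 CPM in N clones (lowest, median and highest), and 8 of 10 A clones exceeded all N clones. The fitted log2 fold change was 1.98 (SE 0.331, adjusted p = 0.00153), and A clones were above N clones on average in each of the 4 animals. HTRA1, a serine protease reported to cut binding proteins, was at 1034, 1301 and 1947 CPM against 606, 863 and 1095 CPM, with 7 of 10 A clones above every N clone and a log2 fold change of 0.63 (SE 0.112, adjusted p = 0.00199). Without animal 23 the adjusted p was 0.0539 for PAPPA and 0.0392 for HTRA1, and without animal 22 that of HTRA1 was 0.0525. PAPPA was thus higher in A clones in the fit of all animals, while the difference of IGFBP4, its substrate, had the opposite sign and did not pass the test.

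Of 7 tested carriers and proteins related to the binding proteins, edgeR called IGFALS alone, as higher, and limma-voom also called 1. DESeq2 with the block called 2 of the 6 genes to which it gave an adjusted p, IGFALS and WISP1. IGFALS, which joins IGF and IGFBP3 or IGFBP5 in the ternary complex of blood, was at 0.954, 2.04 and 7.30 CPM in A clones and 0.120, 0.625 and 3.65 CPM in N clones (lowest, median and highest). Its log2 fold change was 1.79 (SE 0.463, adjusted p = 0.0138). A clones were higher in animals 20, 22 and 23, while in animal 17 the A clone was at 0.954 CPM and the N clone at 3.65 CPM, the latter the highest of the N clones. IGFALS no longer passed without animal 22 (adjusted p = 0.0963) or animal 23 (adjusted p = 0.263).

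Of the 6 genes of the growth hormone axis, edgeR called 3 as higher in A clones and 0 as lower, where 10.3% of all genes were higher and 10.3% lower. DESeq2 with the block called SOCS2 and CISH, 2 of the 5 genes to which it gave an adjusted p. It gave GHR no p-value, so GHR was not tested in that fit. Without the block, DESeq2 called GHR as higher in A clones (log2 fold change 2.17, adjusted p = 1.64e-06). Limma-voom called 3 of the 6. GHR, the growth hormone receptor, was at 8.42, 11.8 and 21.1 CPM in A clones and 0.631, 1.71 and 15.6 CPM in N clones (lowest, median and highest), with a log2 fold change of 2.06 (SE 0.461, adjusted p = 0.00684). N clone 22-18 held the 15.6 CPM, the other N clones were at 5.10 CPM or below, and without it the log2 fold change of GHR was 2.70 (adjusted p = 9.91e-05). SOCS2 and CISH, feedback inhibitors of the receptor that are induced by STAT5, had log2 fold changes of 1.58 (SE 0.387, adjusted p = 0.0106) and 1.46 (SE 0.342, adjusted p = 0.00852). SOCS2 was at 3.33 to 12.6 CPM in A and 0.236 to 12.2 CPM in N clones, with the highest value of each group in animal 20, and CISH at 3.41 to 12.4 CPM in A and 0.590 to 5.73 CPM in N clones. Without animal 23 none of the 3 passed (adjusted p = 0.224 for GHR, 0.179 for SOCS2 and 0.149 for CISH), and SOCS2 was also lost without the block (log2 fold change 1.09, adjusted p = 0.174) and without animal 22 (adjusted p = 0.0554). JAK2, STAT5A and STAT5B did not pass. IGF1, the best known target of this axis, was near the limit of detection in the same clones.

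Of 23 tested genes of intracellular signalling, 1 passed the test, against the 20.6% of all genes. FOXO4, a transcription factor that AKT keeps out of the nucleus, was lower in A clones at 5.17, 9.13 and 16.6 CPM against 8.83, 12.9 and 24.2 CPM (lowest, median and highest), with a log2 fold change of -0.55 (SE 0.148, adjusted p = 0.0166). FOXO4 no longer passed without N clones 22-5 and 22-9 (log2 fold change -0.44, adjusted p = 0.0674) or without the animal as a block (adjusted p = 0.0906), and with an estimated correlation (limma-voom) its adjusted p was 0.0866 and 0 of the 23 genes passed. It was also lost without animal 22 (adjusted p = 0.0814) or animal 23 (adjusted p = 0.147). DESeq2 with the block called 3 of the 23 genes, FOXO4 (adjusted p = 0.00442), GRB2 and TSC2. Of 6 tested genes that control IGF2, edgeR called 0, with 2 at an unadjusted p under 0.05, DESeq2 called 1 and limma-voom 0. The gene called by DESeq2 was H19, the noncoding RNA from the imprinted region of IGF2. H19 ranged from 0.0366 to 657 CPM in A and from 0 to 48.5 CPM in N clones (log2 fold change 3.23, SE 1.30, adjusted p = 0.0842 with edgeR).

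**Figure D5:**
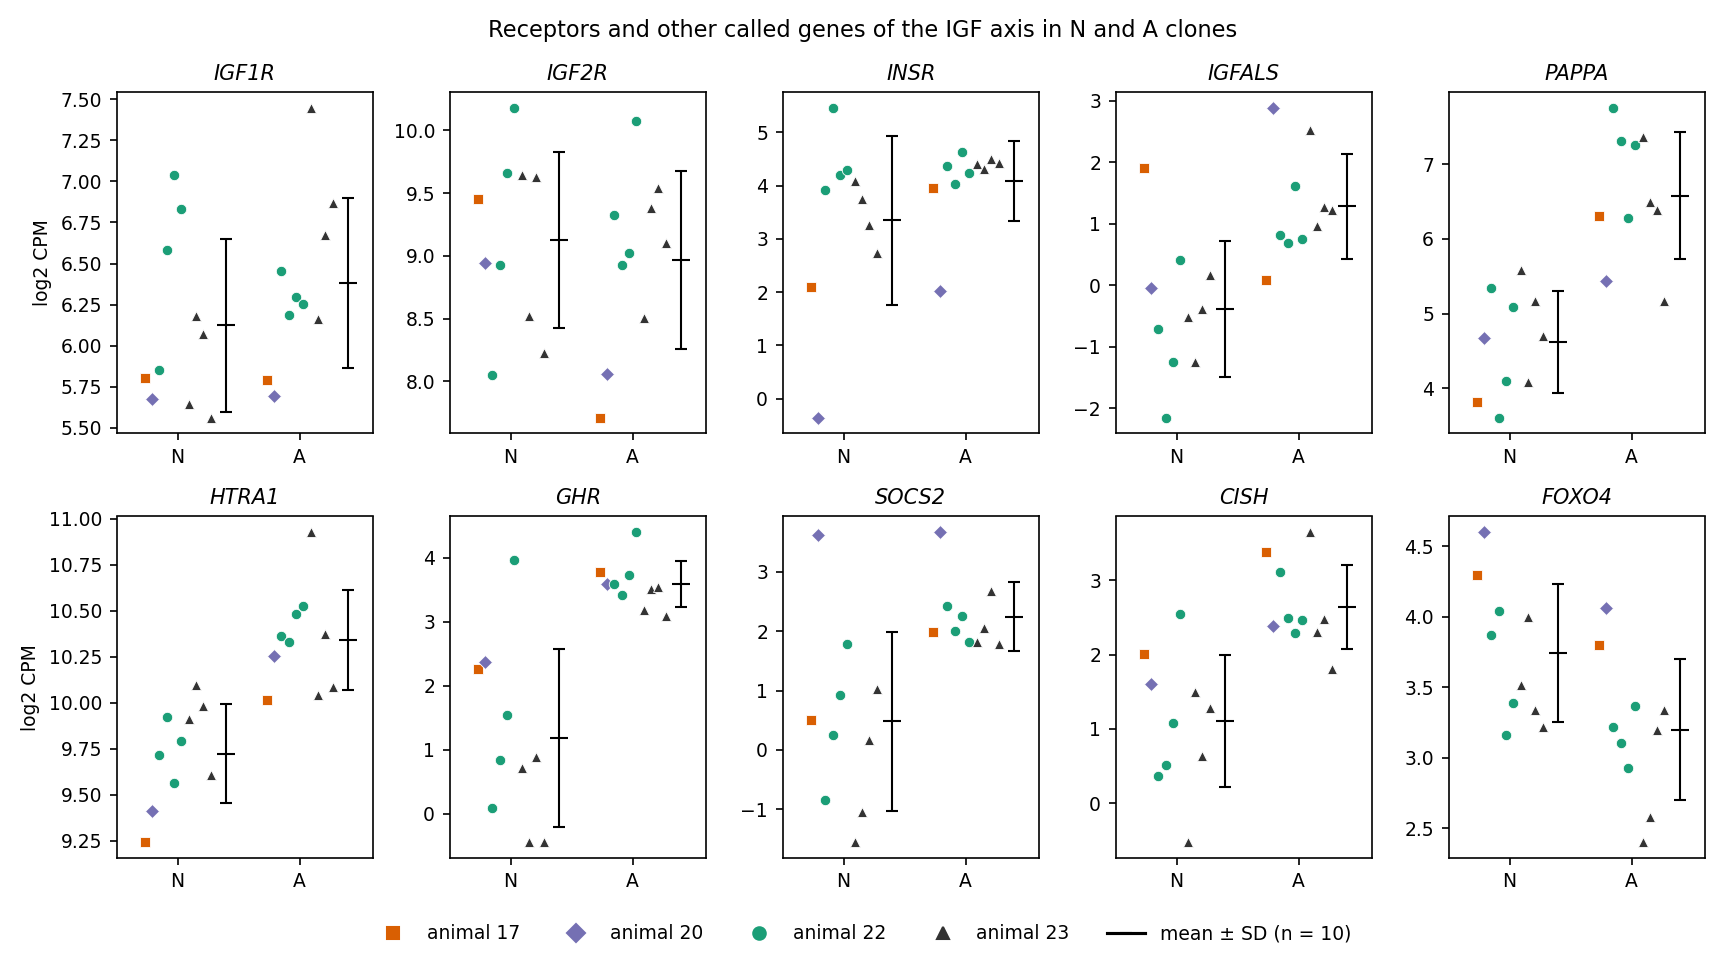
Level of receptors and of called genes of the IGF axis in each clone (log2 CPM with a prior count of 2), N clones on the left and A clones on the right of every panel; symbols mark the 4 animals and the black bar gives mean ± SD over 10 clones. The receptors overlapped between groups, PAPPA and HTRA1 were shifted upwards in A clones, and for GHR N clone 22-18 lay within the range of A clones.

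The genes with the pattern most like that of each tested member were sought among all genes tested by Spearman correlation of log2 CPM over the 20 clones, as a description. How high the best match among 12900 genes would be by chance was not tested. The 3 most like IGFBP3 were PDE1A (0.90), GRIA1 (0.90) and CACNA1H (0.89), a phosphodiesterase, a glutamate receptor subunit and a calcium channel subunit. All 3 were themselves higher in A clones (edgeR, adjusted p = 0.00325, 0.0117 and 0.0329), so their likeness over all clones includes the difference between the groups. Those most like IGFBP4 were SMAD1 (0.86), BCL10 (0.83) and BMP4 (0.83). For IGFBP2 they were NPC1 (0.82), AFAP1L1 (0.81) and TNC (0.80), and for IGFBP5 UBR7 (0.78), MIR3064 (0.74) and NAV2 (0.74). For IGFBP6 they were ARF5 (0.89), KLF4 (0.86) and LOC101903205 (0.85), and for IGFBP7 MDFIC (0.85), GAB2 (0.80) and NBEAL1 (0.79). IGFBP5 had the lowest best match of the 6. No gene was among the first 3 of more than 1 member.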

How the data were processed

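RNA from 10 A and 10 N clones was analysed. The deposited values are raw counts for each gene in each clone, as the authors made them. Per the submitters' processing notes, reads were handled with bcl2fastq 2.20, Trimmomatic 0.36, STAR 2.5.2b and featureCounts of Subread 1.5.2 on build ARS-UCD1.2, and per the study's methods unique reads within exons were counted. The library kit was directional, and the strand used in counting, like the rule for reads on overlapping genes, is not given in the sources used here, so that overlapping genes are uncertain. The table had 33064 rows. The 1 row with no gene name held 0.113% to 0.333% of a library and took no part in totals or tests. It had 0 columns of other samples.

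A and N clones were compared with the quasi-likelihood F test of edgeR 4.0.16 (R 4.3.3) in a robust fit with TMM factors, the package's default filter by condition and the animal as a block. P-values were adjusted over all genes tested by the Benjamini-Hochberg method. The filter kept 12900 of 23383 genes with at least 1 count. Calls used an adjusted p under 0.05 and, as a second count, a change of at least 2-fold. Log2 CPM used a prior count of 2. The animal term was tested with the condition held, and the interaction in 16 clones of animals 22 and 23. Exact permutation tests were two-sided and moved labels within animals. The pairing comes from the animals. As a check, the deviation of A clones from the A mean was correlated with that of N clones from the N mean, which gave 0.253 for animal 17, 0.193 for animal 20, 0.241 for animal 22 and 0.440 for animal 23. The animal is the source of 2 or 8 clones, and p-values measure the spread between clones. No 2 libraries agreed within sampling noise.

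All 8 members were named. Of 61 other genes of the axis, in 6 lists, receptors and genes with an adjusted p under 0.05 were named, and the rest counted. The 3 genes most like each member were taken by Spearman correlation. The members and lists were chosen with earlier results of these data known. Alternatives were DESeq2 1.42.0 with and without the block, its size factors, no block, no filter, a minimum of 10 counts throughout, limma-voom (limma 3.58.1) with the animal as a random effect, sums by animal and condition, single animals, and leaving out 1 animal or 1 clone at a time. The fit without N clones 22-5 and 22-9, H19 and the clones singled out in the text were chosen after seeing the data. The tests were tested on simulated data first. Limits for counts of 0 cover counting error only. Gene neighbours came from RefSeq for ARS-UCD2.0, another assembly than that of the counts, so no coordinates are given. Levels were compared between clones and not between genes, since the counts are not scaled by gene length. How many of all genes tested set A and N clones apart without overlap was not counted.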

Additional observations from a re-analysis of the deposited data

Results flagged for a closer look

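Among 42 groups of 10 clones examined, 4 held a clone far from the other clones of its group, by the gap to the nearest clone as a share of the group's range. Chance flags about 1 in 20 groups, which would be 2.1 here. INSR was lowest in A clone 20-106, at 3.97 CPM against 15.5 CPM in the next clone, a gap of 0.740 of the range. N clone 20-15, of the same animal, was also the lowest N clone for INSR, at 0.675 CPM. SOCS2 was highest in the same A clone, 20-106, at 12.6 CPM against 6.27 CPM in the next, a gap of 0.529 of the range, and the N clone of that animal was also high in SOCS2, at 12.2 CPM. GHR was highest in A clone 22-121, at 21.1 CPM against 13.6 CPM in the next, a gap of 0.482 of the range. IGFBPL1, a protein related to the binding proteins, was highest among N clones in 22-5, with 5 counts against 1 in the next, a gap of 0.653 of the range, and both are near the limit of detection. None of the 4 was one of the 8 members.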

How the results depend on the processing

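In the main fit 1 of 6 tested members was called, with or without the 2-fold limit, and 7 of 50 genes of the axis. Without the replicate block, 0 members were called at either limit, and 5 genes of the axis. IGFBP3 then had an adjusted p of 0.0626 and IGF2 (no filter) one of 0.0830. The block changed no call of any other member, and FOXO4 and SOCS2 of the axis were not called by edgeR without it. The members called were 0 at either limit with at least 10 counts in every clone (4 members tested, IGFBP3 not among them), with limma-voom, with counts summed per animal and condition, in animal 22 alone and without animal 23. They were 2 at either limit without the filter (IGF2 and IGFBP3), and with DESeq2, with or without the block, they were 2 (IGFBP3 and IGFBP4), of which 1, IGFBP3, was past the 2-fold limit. When each clone was left out in turn, 1 to 2 members were called at either limit, IGFBP4 being the second without N clone 22-17 or A clones 23-14 or 23-68. The genes of the axis called were 11 with DESeq2 and the block, 0 with summed counts, 0 in animal 22 alone, 3 in animal 23 alone, 1 without animal 23 and 7 to 10 when each clone was left out. Among these alternatives, the share of all genes called was counted without the filter and in animals 22 and 23 alone. For the others, DESeq2 and limma-voom included, it was not counted. Their counts, here and above, therefore cannot be set against a share of all genes. Members that differed between animals were 0 to 1 when each clone was left out, IGFBP3 being called without N clone 22-18 or A clone 23-68. The interaction had 0 calls throughout. Signs turned in animal 22 alone for IGFBP2 (-0.51), IGFBP6 (0.063), IGFBP7 (-0.31), IGF1R (-0.35) and INSR (-0.28), in animal 23 alone for IGFBP5 (-0.51) and IGF2R (0.045), without animal 22 for IGFBP5 (-0.62), and without animal 23 for IGF1R (-0.23) and IGF1 (-0.087). IGF1, at few counts, turned to -0.069 as a difference of mean log2 CPM and ran from -0.92 to 1.24 when each clone was left out. IGFBP3 kept its sign in all 35 alternatives, from 2.89 to 8.79, with an adjusted p from 1.50e-05 to 0.319, and IGFBP4 in all 36, from -1.53 to -0.26, with an adjusted p from 0.0187 to 0.686. The causes of these changes were not tested. Fits of single animals also rested on fewer clones. Depth limits IGF1 and IGF2, whose levels were within a few counts of 0 in most clones.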

Other observations

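IGFBPL1, chosen after its values were seen, had counts mainly in the A clones of animal 22, which summed to 109 counts over 4 clones, against 6 counts in the 4 N clones of that animal. In animal 23 the sums were 7 and 0 counts, in animal 20 they were 2 and 0, and in animal 17 no count was found in either clone. Its levels in the A clones of animal 22 ran from 1.05 to 1.95 CPM.

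H19 had its highest levels in A clones 22-11 and 22-16, at 657 and 105 CPM. In animal 23 its A clones summed to 726 counts and its N clones to 8. In animals 17 and 20 the N clone was the higher, at 11.0 and 4.36 CPM against 3.0 and 2.89 CPM in the A clone. IGF2, from the same imprinted region, was above the N clone in the A clone of both animals, at 3.27 against 0.871 CPM and at 1.62 against 0.246 CPM. Summed over the clones of animals 22 and 23, both genes had more counts in A than in N clones. The sums were 53 against 12 and 11 against 1 for IGF2, and 20036 against 1713 and 726 against 8 for H19. In animal 22, A clone 22-11 alone held 18193 of the H19 counts. A clones 22-27 and 22-121 (9.52 and 2.19 CPM) were below N clones 22-5, 22-9 and 22-17 (34.4, 48.5 and 11.6 CPM) and above N clone 22-18 (0.967 CPM). In animal 23, A clone 23-108 had 1 H19 count. How the levels of H19 and IGF2 relate was not tested.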
